A study of Mus musculus with 3 samples.

Results

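The Rab GTPases are the largest family of small GTPases in mammals and mark the membranes between which vesicles move. They were taken here as every gene whose probe sets carry exactly 1 gene symbol in the platform annotation and whose symbol is Rab followed by digits and at most 1 letter. Rab7b was counted, and Rab11fip-type names were left out. The rule gave 59 genes of 18193 with a probe set, read by 132 probe sets, and it used no intensity. Of the 59 genes, 49 were measured, meaning that the probe set standing for the gene reached an intensity of 78.9, the median of all values of noncontrol probe sets, on at least 1 array. Only the 49 enter the counts below. Of these, 41 reached that level on all 3 arrays, 2 on 2 arrays and 6 on 1 array. The 10 others were Rab3b, Rab3c, Rab9b, Rab25, Rab26, Rab30, Rab37, Rab39, Rab39b and Rab42.

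The RNA came from dendritic cells, which take up and present antigens, grown out of the bone marrow of female mice aged 6 weeks with the growth factor GM-CSF at 20 ng/mL. Nonadherent cells taken at day 7 then received, for 24 h, the agent named PTX in the labels (100 ng/mL), LPS (1 µg/mL) or, as the control, PBS. LPS, lipopolysaccharide, is the bacterial ligand of Toll-like receptor 4. PTX is not spelled out there. The labels give the strain as C57BL/7 for the PTX sample and as C57BL/6 for the LPS and PBS samples. Each of the 3 groups held 1 Affymetrix array, so no difference has a replicate error or a test, and values are described by their size. Whether the cultures shared a mouse or a marrow preparation is not given in the sources used here.

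A Rab protein works as a switch. An exchange factor loads it with GTP, it then recruits effectors (tethers, motors and lipid kinases) to its membrane, and a GTPase-activating protein returns it to the GDP form, which GDI carries through the cytosol. Lipid anchors added by Rab geranylgeranyl transferase, with the help of the escort proteins Chm and Chml, attach it to the membrane. In dendritic cells Rab proteins serve uptake and phagosome maturation, delivery of MHC molecules and Toll-like receptors, and secretion of cytokines and vesicles.

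The LPS array stood apart. Its median intensity over all probe sets was 65.4, against 87.0 on the PTX array and 85.8 on the PBS array, and 18S ribosomal RNA had a 3′ to 5′ probe set ratio of 1.95 on the LPS array, against 0.198 on the PTX array and 0.26 on the PBS array. Every difference below that involves LPS rests on that array, and the part of these array differences in any Rab value was not tested. Differences are on the log2(intensity + 16) scale, where 1 stands for 2-fold, and the added 16 shrinks the differences of dim probe sets. LPS and PTX were both set against the same PBS array.

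Few Rab genes were 2-fold apart. In LPS against PBS, 2 of the 49 measured Rab genes were at least 2-fold higher (Rab20 and Rab11b), none was at least 2-fold lower and 47 lay within 2-fold. Over all 12299 measured genes the same comparison gave 6.5% higher and 13% lower by at least 2-fold. In PTX against PBS, 2 Rab genes were at least 2-fold higher (Rab19 and Rab31) and none was at least 2-fold lower, against 3.04% and 2.37% of all measured genes. In PTX against LPS, 3 were at least 2-fold higher (Rab19, Rab9 and Rab5b) and 3 at least 2-fold lower (Rab11b, Rab20 and Rab32), against 13.7% and 6.24% of all measured genes.

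Counting both directions, LPS and PBS differed by 2-fold or more in 4.08% of the Rab genes, where the share over all measured genes was 19.5%. In PTX against PBS the shares were 4.08% and 5.42%, and in PTX against LPS 12.2% and 19.9%. The Rab genes also lay closer together in the LPS comparison, with 35 of 49 (71.4%) closer to 0 than a log2 difference of 0.5, against 58% of all measured genes. In PTX against PBS 41 of 49 (83.7%) did so, near the 82.8% of all measured genes. The counts describe these 3 arrays, and no test stands behind them. They also depend on the scaling. With median centring, LPS against PBS gave 1397 higher and 1073 lower genes by at least 2-fold over all measured genes, where the deposited values gave 799 and 1601, and PTX against LPS gave 1 higher and 3 lower Rab genes in place of 3 and 3.

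The medians of the family were close to 0. The median log2 difference of the 49 genes was 0.19 in LPS against PBS, with the central 50% of genes between -0.08 and 0.45, where the median of all measured genes was -0.08. It was 0.10 in PTX against PBS, beside 0.01 for all measured genes, and -0.22 in PTX against LPS, beside 0.09, though the last ran from -0.56 to -0.05 over the alternative settings. Median centring of the arrays moved the median of all genes in LPS against PBS to 0.24 and that of the Rab genes to 0.51. Relative to all genes the Rab median in LPS against PBS was 0.27 higher with the deposited values and 0.16 higher with quantile normalization. Median centring shifts all genes of an array alike, so it cannot change this gap. In PTX against LPS the Rab median minus that of all genes was -0.31 with the deposited values and -0.03 with quantile normalization. By the array with the highest reading, 17 Rab genes were highest with PTX, 26 with LPS and 6 with PBS. The same split was not counted over all measured genes, so whether the Rab genes differ from them in this was not tested.

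**Figure D1:**
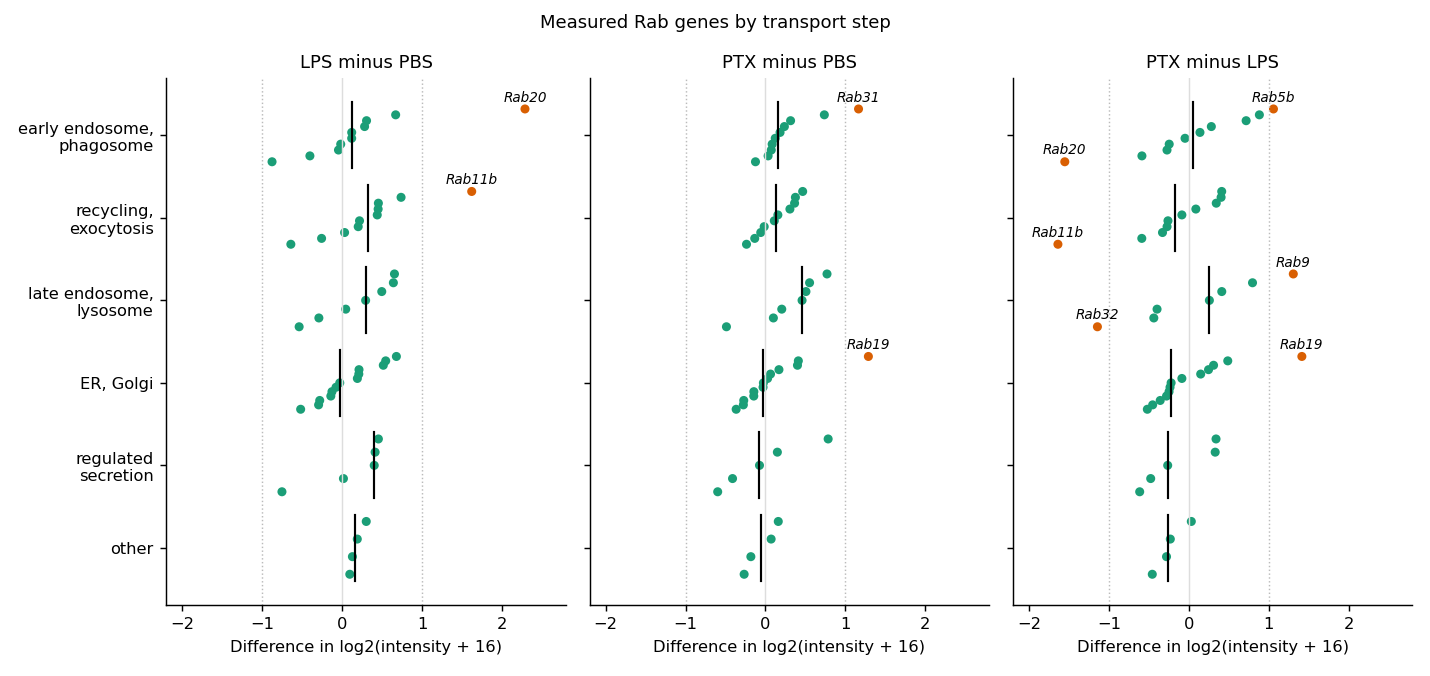
Each point is 1 of the 49 measured Rab genes, placed by its difference in log2(intensity + 16) (x axis) and grouped by transport step (y axis), in LPS minus PBS, PTX minus PBS and PTX minus LPS. Orange points are at least 2-fold apart and named, black bars are the medians of each step, and dotted lines mark 2-fold. Rab20 (2.29) is the farthest point in LPS minus PBS and Rab19 (1.29) in PTX minus PBS.

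The 10 Rab genes of early endosomes and phagosomes held the largest difference from LPS and 1 of the 2 from PTX. Against PBS 10% of them were 2-fold apart with LPS and 10% with PTX, beside 19.5% and 5.42% of all measured genes. Rab20, which associates with endosomes and phagosomes and promotes phagosome maturation in macrophages, read 369.7 with PTX, 1115 with LPS and 215 with PBS. The LPS reading was highest and the PTX reading lay between. The log2 difference was 2.29 in LPS against PBS, a 4.89-fold difference, 0.74 in PTX against PBS and -1.55 in PTX against LPS. Rab20 had 1 probe set, so no other reading of the gene was at hand.

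Rab31, a relative of Rab5 that moves cargo between the trans-Golgi and endosomes, read 1523 with PTX, 818 with LPS and 670.2 with PBS. It was high with PTX, by 1.17 against PBS and 0.88 against LPS, while LPS and PBS differed by 0.28. Its other probe set stayed under the measured level on every array, at 65.3 with PTX, 77.5 with LPS and 40.1 with PBS.

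The 3 Rab5 genes encode the organisers of the early endosome. Rab5a and Rab5c were close to PBS with both stimuli, Rab5a at -0.02 with LPS and 0.12 with PTX, and Rab5c at -0.05 with LPS and 0.24 with PTX. Rab5b read 147 with PTX, 62.0 with LPS and 127 with PBS, so that PTX exceeded LPS by 1.06 while LPS lay below PBS by less than 2-fold (-0.88). Its LPS reading was under the measured level, and its second measured probe set differed by 0.17 in PTX against LPS (93.9 with PTX and 81.7 with LPS).

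Of the remaining 5 early endosomal genes, Rab21, which acts in integrin uptake, differed by 0.67 in LPS against PBS and 0.08 in PTX against PBS. Rab14, a Golgi and endosome Rab that has been linked to cross-presentation in dendritic cells, differed by 0.12 with LPS and 0.07 with PTX. Rab22a, of the endosomal recycling route, differed by 0.12 with LPS and -0.12 with PTX. The fast recycling genes Rab4a and Rab4b differed by -0.40 and 0.31 with LPS, and by 0.31 and 0.03 with PTX. Rab4a reached the measured level with PTX alone (83.3).

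Among 10 measured genes of recycling and polarised exocytosis, Rab11b was the only one at least 2-fold apart. That is 10% in LPS against PBS and in PTX against LPS, beside 19.5% and 19.9% of all measured genes. Rab11b, a Rab of the recycling endosome, read 547 with PTX, 1736 with LPS and 553 with PBS in the probe set that stands for the gene. LPS was thus high against both other arrays, by 1.62 against PBS, and PTX lay below LPS by more than 2-fold (-1.64) while PTX and PBS were alike (-0.02). The other 2 measured probe sets of Rab11b went the opposite way. One read 361 with PTX, 190.4 with LPS and 434 with PBS (-1.12 in LPS against PBS), and the other read 66.1 with PTX, 42.6 with LPS and 113 with PBS (-1.14). The direction for Rab11b in LPS therefore differed between the probe sets of the gene.

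Rab11a, the paralogue of Rab11b and likewise a Rab of the recycling endosome that carries Toll-like receptor 4, differed by 0.20 in LPS against PBS and -0.06 in PTX against PBS. Its second measured probe set gave -0.21 with LPS and -0.64 with PTX. Rab10, which moves Toll-like receptor 4 to the surface in macrophages, differed by 0.44 with LPS and 0.11 with PTX. Rab13, a Rab of cell junctions and exocytosis, differed by 0.74 with LPS and 0.47 with PTX. The exocytic genes Rab8a and Rab8b differed by 0.45 and 0.03 with LPS and by 0.36 and 0.38 with PTX. Rab35, which drives fast recycling to the surface, was lowest of this step with LPS (-0.64) and differed by -0.24 with PTX. Rab12, Rab15 and Rab17 lay between -0.26 and 0.45 with LPS and between -0.13 and 0.31 with PTX. Rab17 was measured with PTX alone (83.6).

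The 7 measured genes of late endosomes, lysosomes and lysosome-related organelles had medians of 0.46 with PTX and 0.29 with LPS, each against PBS. Between PTX and LPS 2 of them (Rab9 and Rab32) were 2-fold apart, or 28.6%, beside 19.9% of all measured genes. Rab9, which returns receptors such as the mannose 6-phosphate receptor to the trans-Golgi, read 1866 with PTX, 744 with LPS and 1087 with PBS. It was highest with PTX and lowest with LPS, with a difference of 1.31 in PTX against LPS, 0.77 in PTX against PBS and -0.54 in LPS against PBS. Rab9 had 1 probe set.

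Rab32, a Rab of lysosome-related organelles such as melanosomes and of pathogen-containing vacuoles, showed the reverse order. It read 1636 with PTX, 3634 with LPS and 2302 with PBS, with PTX below LPS (-1.14), PTX below PBS by less than 2-fold (-0.49) and LPS above PBS by less than 2-fold (0.66). Its close paralogue Rab38 differed by 0.64 in LPS against PBS and 0.20 in PTX against PBS in the probe set that stands for the gene. The second measured probe set of Rab38 read 50.5 with PTX, 220.2 with LPS and 60.0 with PBS, and so reached the measured level of 78.9 with LPS alone.

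Rab7, which governs fusion of late endosomes and phagosomes with lysosomes, read 5192 with PTX, 3895 with LPS and 3774 with PBS, a difference of 0.46 in PTX against PBS and 0.05 in LPS against PBS. Its second measured probe set was highest with LPS instead, at 1628 with PTX, 2394 with LPS and 1446 with PBS (0.17 in PTX against PBS and 0.72 in LPS against PBS), so that PTX against LPS was 0.41 in one and -0.55 in the other. Rab7b, which is reported to send Toll-like receptor 4 to lysosomes in macrophages, read 1304 with PTX, 1088 with LPS and 884 with PBS. Its 3 measured probe sets differed by 0.55, 0.62 and 0.48 in PTX against PBS, whereas in LPS against PBS they gave 0.29, -0.66 and 0.39. Rab29, a Golgi and lysosome Rab that binds the kinase Lrrk2, read 1617 with PTX, 923 with LPS and 1133 with PBS, which is 0.51 higher in PTX than in PBS and 0.80 higher in PTX than in LPS. Rab24, an atypical Rab linked to autophagy, differed by 0.50 with LPS and 0.10 with PTX.

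**Figure D2:**
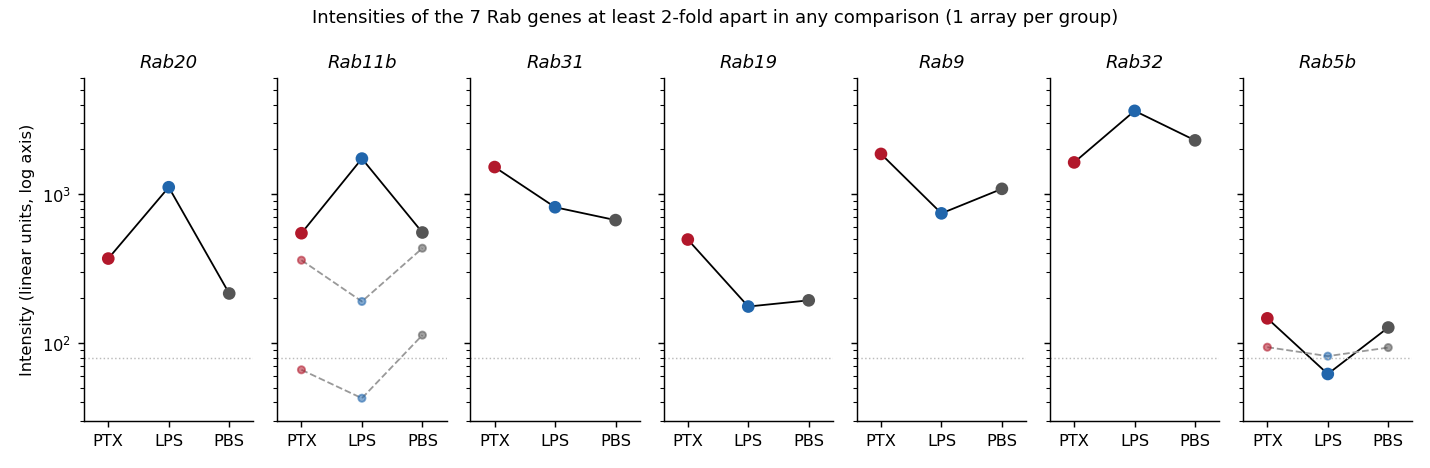
Intensities (y axis, linear units on a log axis) on the PTX, LPS and PBS arrays (x axis) for the 7 Rab genes at least 2-fold apart in any comparison. Large points joined by solid lines are the probe set that stands for the gene, small points joined by dashed lines are other measured probe sets, each line joins the readings of 1 probe set, and the dotted line is the measured level of 78.9. Rab20, Rab11b and Rab32 are highest with LPS, Rab31, Rab19 and Rab9 are highest with PTX, and the dashed lines of Rab11b run opposite to its solid line.

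Of 13 measured genes of the endoplasmic reticulum and Golgi, all 13 lay within 2-fold in LPS against PBS, where 19.5% of all measured genes were 2-fold apart. In PTX against PBS 12 lay within 2-fold, leaving 7.69% apart, beside 5.42% of all measured genes. Rab19, a little studied Rab placed at the Golgi, was the exception. It read 496 with PTX, 176 with LPS and 194 with PBS in its only probe set, so that PTX was high and the other arrays were alike. The difference was 1.29 in PTX against PBS, a 2.44-fold difference, and 1.42 in PTX against LPS.

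Rab1a, which with Rab1b carries cargo from the endoplasmic reticulum to the Golgi, read 5466 with PTX, 7482 with LPS and 5229 with PBS (0.52 in LPS against PBS and 0.06 in PTX against PBS), and Rab1b differed by 0.21 with LPS and -0.03 with PTX. Rab2a and Rab2b, of the return route from the Golgi, differed by -0.03 and -0.52 with LPS and by -0.28 and -0.27 with PTX. The 5 other measured probe sets of Rab2a lay between 0.35 and 1.79 with LPS. Rab6a, of transport within the Golgi and back to the endoplasmic reticulum, differed by -0.29 with LPS and -0.15 with PTX. Its other measured probe sets gave -0.56 and -1.30 with LPS, and -0.21 and -0.13 with PTX. Rab34, which acts in phagosome maturation and in cilium formation, differed by 0.68 with LPS and 0.40 with PTX, and its second probe set by 0.86 with LPS and 0.54 with PTX. Rab43, which is required for cross-presentation by mouse dendritic cells, differed by -0.08 with LPS and 0.41 with PTX. The other 5 (Rab6b, Rab18, Rab33a, Rab33b and Rab36) lay between -0.28 and 0.55 with LPS and between -0.37 and 0.17 with PTX.

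Among the secretory Rab genes 5 of 9 were measured and none was 2-fold apart in any comparison. Over all measured genes 19.5% were in LPS against PBS, 5.42% in PTX against PBS and 19.9% in PTX against LPS. Rab27a, which docks lysosome-related organelles and exosome-bearing endosomes at the plasma membrane and protects antigens in dendritic cell phagosomes, read 694 with PTX, 548 with LPS and 396 with PBS. Both stimuli exceeded PBS by less than 2-fold, LPS by 0.45 and PTX by 0.78. Its paralogue Rab27b was measured with LPS alone (97.4). Rab3d, a Rab of secretory granules, was low with both stimuli, at 381 with PTX, 298 with LPS and 513 with PBS (-0.75 in LPS against PBS and -0.41 in PTX against PBS). All 4 measured probe sets of Rab3d gave a negative difference in both comparisons with PBS, though not of the same size. The 3 others were at -0.43, -0.08 and -0.02 in LPS against PBS and at -0.39, -0.42 and -0.07 in PTX against PBS. The last of these read 82.59 with PTX, 86.21 with LPS and 87.55 with PBS, just above the measured level. Rab44, a large Rab of mast cell granules, differed by 0.02 with LPS and -0.60 with PTX, and Rab3a, the Rab of synaptic vesicles, by 0.41 with LPS and 0.15 with PTX. The remaining measured genes were Rab23, a Rab of cilium-dependent signalling, Rab28, Rab40b and Rab40c, which lay between 0.10 and 0.30 with LPS and between -0.27 and 0.16 with PTX.

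Probe sets of the same Rab gene disagreed in LPS more than in PTX. For the 25 Rab genes with several measured probe sets, the median range over the probe sets of a gene was 0.68 in LPS against PBS and 0.18 in PTX against PBS. The median absolute disagreement between the probe set that stands for the gene and the others was 0.42 for Rab genes in LPS against PBS, beside 0.50 over all measured genes, and 0.15 beside 0.16 in PTX against PBS. Of the 93 measured Rab probe sets, 7 were at least 2-fold lower in LPS than in PBS (7.53%, where 16.3% of all measured probe sets were) and 5 were at least 2-fold higher (5.38%, where 6.23% were). None of those 7 stood for its gene.

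The probe set of Rab14 with the largest gap read 410.4 with PTX, 37.1 with LPS and 414 with PBS. That of Rab1a read 379 with PTX, 34.7 with LPS and 249.7 with PBS, and that of Rab22a read 294, 44.3 and 251. Each was low on the LPS array alone, by at least 4-fold against both other arrays, and the other measured probe sets of these genes lay between -0.32 and 0.54 in LPS against PBS. Over all measured probe sets 3.10% showed this pattern, against 3.23% of the Rab probe sets, so it was not more frequent in Rab genes. Rab2a had 2 probe sets that were high with LPS alone. One read 230.2 with PTX, 965 with LPS and 277 with PBS, and the other 57.9, 303 and 76.4, while the 4 other measured probe sets of Rab2a lay between -0.03 and 0.48 in LPS against PBS.

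**Figure D3:**
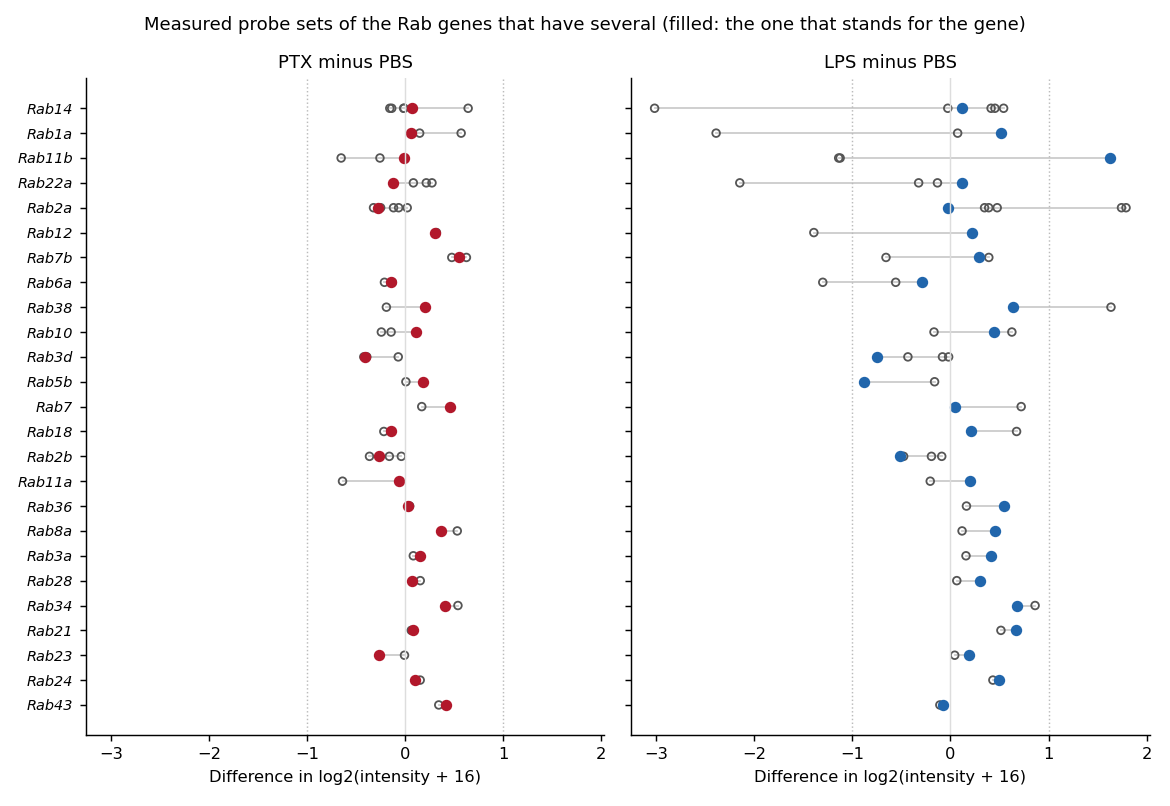
Differences in log2(intensity + 16) (x axis) of each measured probe set of the 25 Rab genes that have several (y axis, sorted by their range in LPS minus PBS), in PTX minus PBS and in LPS minus PBS. Filled points stand for the gene, open circles are the other probe sets, and dotted lines mark 2-fold. The probe sets of a gene lie close together in PTX minus PBS, with no point beyond 2-fold, and spread to -3.02 for Rab14 in LPS minus PBS.

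Promoter sequences are shown for the 4 genes at least 2-fold higher than PBS with either stimulus, Rab20 and Rab11b with LPS and Rab19 and Rab31 with PTX. They are the 250 bases before the RefSeq start of each gene, 5′ to 3′ on the gene's strand, from the RefSeq table of build GRCm38.p6, in which 48 of the 59 Rab genes had an entry. Capitals mark matches to 1 of 5 motifs searched on both strands, namely GGANNTTCC (NF-kB type), AANNGAAA (interferon regulatory factor core), TGACGTCA (cAMP response element), TGANTCA (AP-1) and CACGTG (E-box).

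Rab20 promoter, chr8:11478641-11478890, minus strand: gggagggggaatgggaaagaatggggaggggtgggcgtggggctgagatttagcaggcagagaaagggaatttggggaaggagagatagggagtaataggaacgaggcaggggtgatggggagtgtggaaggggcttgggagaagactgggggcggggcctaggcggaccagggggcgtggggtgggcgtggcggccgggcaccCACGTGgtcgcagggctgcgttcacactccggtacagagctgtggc

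Rab11b promoter, chr17:33760487-33760736, minus strand: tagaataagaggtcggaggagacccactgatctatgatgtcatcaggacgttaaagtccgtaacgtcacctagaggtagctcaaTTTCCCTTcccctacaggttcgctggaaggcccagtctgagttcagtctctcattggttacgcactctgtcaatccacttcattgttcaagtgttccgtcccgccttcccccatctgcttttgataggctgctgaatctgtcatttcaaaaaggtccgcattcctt

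Rab19 promoter, chr6:39381103-39381352, plus strand: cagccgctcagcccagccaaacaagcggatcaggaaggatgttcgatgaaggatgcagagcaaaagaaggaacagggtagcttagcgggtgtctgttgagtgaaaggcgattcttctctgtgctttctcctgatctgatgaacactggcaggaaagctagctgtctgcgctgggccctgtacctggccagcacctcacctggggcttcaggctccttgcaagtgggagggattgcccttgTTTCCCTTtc

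Rab31 promoter, chr17:65772753-65773002, minus strand: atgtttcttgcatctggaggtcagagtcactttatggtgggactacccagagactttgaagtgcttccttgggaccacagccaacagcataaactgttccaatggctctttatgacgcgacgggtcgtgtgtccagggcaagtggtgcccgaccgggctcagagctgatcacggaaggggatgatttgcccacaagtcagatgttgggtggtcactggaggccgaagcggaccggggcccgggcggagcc

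The Rab20 window held 1 E-box, 46 bases before the start, the Rab11b window 1 interferon regulatory factor core, 166 bases before it, the Rab19 window 1 such core, 10 bases before it, and the Rab31 window no match to these letters. Among the 41 measured Rab genes with a promoter entry, the interferon regulatory factor core was in 4 (Rab3a, Rab11b, Rab19 and Rab28), the E-box in 4 (Rab5a, Rab20, Rab21 and Rab23), AP-1 in 1 (Rab34), the cAMP response element in 1 (Rab5a) and the NF-kB type in 0. Over 27025 promoters of the table the shares were 21.6% for the interferon regulatory factor core, 6.05% for the E-box, 6.87% for AP-1, 1.62% for the cAMP response element and 3.56% for the NF-kB type. Of the genes with an interferon regulatory factor core, Rab28 and Rab3a lay within 2-fold in every comparison. The median share of G and C was 60.6% in the Rab windows and 52% in all.

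Genes for the proteins that load, unload and read Rab GTPases were past 2-fold in larger shares than the Rab genes in LPS against PBS, and in no larger a share than all measured genes. Of 32 measured exchange factor genes 1 was at least 2-fold higher and 3 were lower, of 38 GTPase-activating protein genes 1 was higher and 6 were lower, and of 40 effector genes none was higher and 4 were lower. Of those 4 effector genes, Rims1 was measured with PBS alone. The medians of the 3 lists were -0.12, -0.18 and -0.27, near or below the -0.08 of all measured genes. The shares at least 2-fold apart were 12.5%, 18.4% and 10%, against the 19.5% of all measured genes. In PTX against PBS 1 exchange factor and 2 effector genes (Rab11fip5, and Sytl2, measured with PTX alone) were at least 2-fold higher and none of the 3 lists held a lower one. These were 3.12% of the exchange factor and 5% of the effector genes, where 3.04% of all measured genes were at least 2-fold higher. In PTX against LPS the shares at least 2-fold apart were 28.1% of the exchange factor, 15.8% of the GTPase-activating protein and 20% of the effector genes, against the 19.9% of all measured genes.

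Tbc1d4, which switches off Rab8, Rab10 and Rab14 proteins and is best known from insulin-driven glucose transport, read 620 with PTX, 2349 with LPS and 305 with PBS. It was 2.88 higher in LPS than in PBS and 0.99 higher in PTX than in PBS, and its second measured probe set differed by 0.34 and 0.39. Evi5, a GTPase-activating protein linked to Rab11, read 1107 with PTX, 231 with LPS and 1377 with PBS (-2.50 in LPS against PBS, -0.91 in its second probe set). Sgsm2 (-1.99) and Sgsm3 (-1.66) came next among the 6 lower ones, with Sgsm2 under the measured level on the LPS array (71.5). None of the GTPase-activating protein genes was 2-fold apart in PTX against PBS.

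Dennd4a, an exchange factor for Rab10, read 142 with PTX, 731 with LPS and 95.6 with PBS, a difference of 2.74 in LPS against PBS, but its other measured probe set was at -0.64. Als2cl (-2.74), Dennd1a (-1.13) and Dennd2a (-1.07) were lower with LPS. Als2cl read 38.0 with LPS, under the measured level. The second measured probe sets were within 2-fold, at -0.21 for Als2cl and -0.48 for Dennd2a. Dennd1a, an exchange factor for Rab35, read 655 with PTX, 122 with LPS and 286 with PBS and so was high with PTX (1.15 against PBS, 2.29 against LPS) and low with LPS. In PTX against LPS 8 of the 32 exchange factor genes were at least 2-fold higher and 1 was lower (Dennd4a, -2.24), beside 13.7% and 6.24% of all measured genes.

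Among effectors Sytl2, a synaptotagmin-like protein that binds Rab27 proteins, read 309 with PTX, 14.1 with LPS and 34.5 with PBS. It reached the measured level of 78.9 with PTX alone, in its only measured probe set, so the size of its differences from LPS and PBS was not measured. Rab11fip5, a Rab11-binding protein of recycling endosomes, read 2099 with PTX, 467 with LPS and 950.1 with PBS (1.13 in PTX against PBS and 2.13 in PTX against LPS), and its second measured probe set differed by 1.14 in PTX against PBS. Rabl6 (-1.61), Micall2 (-1.43), Rims1 (-1.12) and Rufy2 (-1.06) were the effector genes at least 2-fold lower in LPS than in PBS, with all but Rabl6 under the measured level on the LPS array. Of the 40 effector genes 8, Sytl2 among them, were at least 2-fold higher and none was lower in PTX against LPS, beside 13.7% and 6.24% of all measured genes. Of the 7 measured escort, prenylation and GDI genes, Chml alone was 2-fold apart, at -1.07 in LPS against PBS. That is 14.3%, beside 19.5% of all measured genes. In PTX against PBS Chml was within 2-fold (-0.91) and Gdi2 differed by 0.30. For Chm and Rabif 1 other measured probe set each passed 2-fold, at -1.15 and 1.08 in LPS against PBS. In PTX against LPS these were at 1.06 and -1.20.

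Other vesicle traffic families lay near the Rab genes. The 34 measured SNARE genes, whose products fuse vesicles with their target, showed no 2-fold difference in LPS against PBS (median 0.23) and 1 in PTX against PBS (Stx16, 1.12, with a median of 0.14). The 14 measured Arf and Arl genes, GTPases of coat assembly, had medians of 0.21 with LPS and 0.04 with PTX against PBS. None of them was 2-fold apart in any comparison. Over all measured genes the shares were 19.5% in LPS against PBS, 5.42% in PTX against PBS and 19.9% in PTX against LPS. In PTX against LPS the SNARE gene Stx16 was at least 2-fold higher (1.68), and Sec22a (-1.20) and Sec22b (-1.04) were at least 2-fold lower. Other measured probe sets passed 2-fold in LPS against PBS, higher for Vamp3, Ykt6, Arf1 and Arf4 and lower for Stx17, Snap29 and Arf6.

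**Figure D4:**
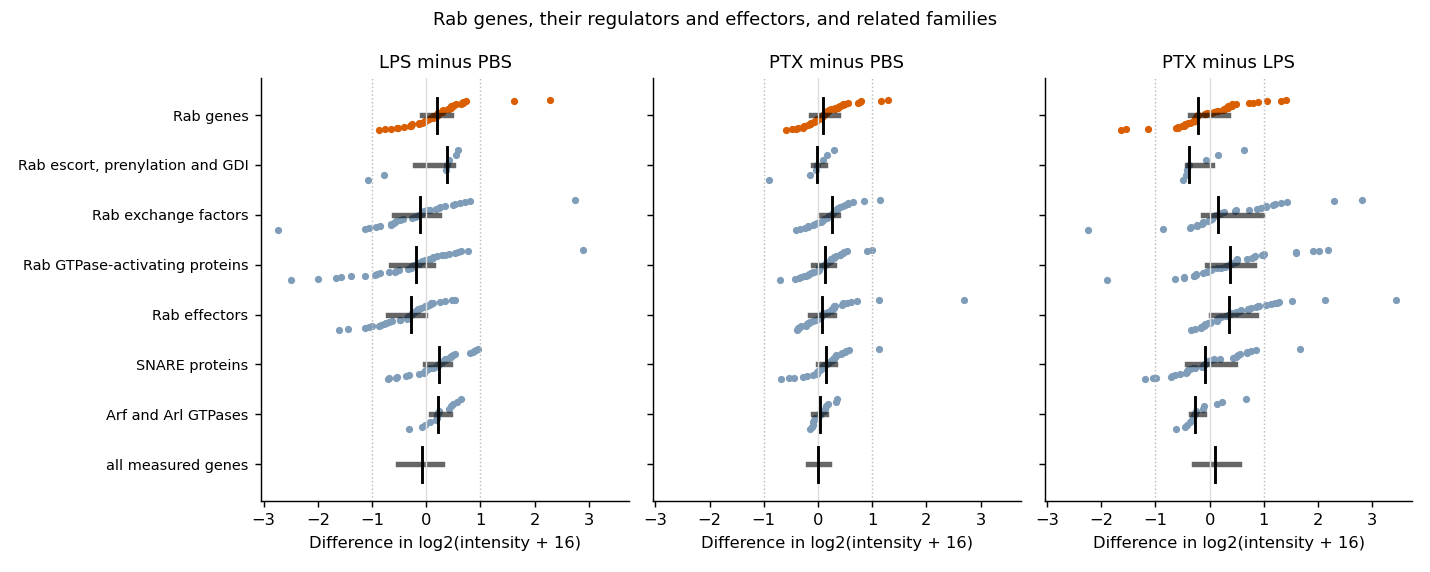
Differences in log2(intensity + 16) (x axis) of the measured genes of each list (y axis), with the Rab genes in orange and the other lists in blue, in LPS minus PBS, PTX minus PBS and PTX minus LPS. Black bars show each list's median, grey bars the central 50% of its genes, and the lowest row gives these for all 12299 measured genes. In LPS minus PBS the Rab median lies at 0.19 and that of the effectors at -0.27.

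Levels of cell type markers differed between the arrays as well, given here as intensities summed over the measured markers of each list. Of 9 dendritic cell markers 8 were measured (all but Cd209a), and they summed to 26626 with PTX, 35743 with LPS and 23511 with PBS. Against PBS 5 of the 8 were higher with LPS and 6 with PTX, where 44.0% and 50.7% of all measured genes were. Flt3 was higher with both (1.33 with LPS and 1.78 with PTX), though under the measured level with PBS (62.1). Itgax was lower with both (-0.49 with LPS and -0.87 with PTX). All 11 macrophage markers with a probe set were measured, with sums of 45202 with PTX, 47174 with LPS and 29277 with PBS. Highest with PTX were 7 of them and highest with LPS 4, a split not counted over all measured genes. Of the 11, Mertk, Maf, Mrc1, C1qa, C1qb and C1qc (6 in all) were at least 2-fold higher in PTX than in LPS, where 13.7% of all measured genes were. The other 5 were Fcgr1 (0.06), Csf1r (-0.13), Cd68 (-0.34), Adgre1 (-0.67) and Cd14 (-0.92). In PTX against PBS Fcgr1 (2.79), Mertk (1.78) and Maf (1.42) were at least 2-fold higher, where 3.04% of all measured genes were. On the same PTX array 17 of the 49 measured Rab genes were highest, Rab31, Rab19 and Rab9 among them. A link between them and these markers was not tested. Of 10 markers of mast cells, basophils and eosinophils 3 were measured, with sums of 198 with PTX, 1937 with LPS and 268 with PBS, in which Prg2 (3.28) and Cpa3 (2.33) were higher in LPS than in PBS. The neutrophil markers summed to 5433 with PTX, 11898 with LPS and 10467 with PBS (6 of 8 measured, not Elane or Mpo). Of 6 erythroid and megakaryocyte markers 4 were measured (Pf4, Itga2b, Gp9 and Ppbp). Hba-a1 and Alas2 were not, so no erythroid marker was measured. The 4 summed to 7040 with PTX, 6893 with LPS and 8178 with PBS. In LPS against PBS Ppbp was lower (-2.18) and Pf4 differed by 0.17. Stromal markers (3 of 7 measured) summed to 504 with PTX, 668 with LPS and 572 with PBS. In LPS against PBS Dcn was higher (2.78), though under the measured level with PBS (40.8), and Acta2 was lower (-1.25). The 2 measured of 6 B cell markers, Cd22 and Vpreb3, summed to 541 with PTX, 131 with LPS and 992 with PBS. Vpreb3 was lower than in PBS with both stimuli (-2.03 with PTX and -3.85 with LPS). Cd22 was higher than in PBS with PTX (0.77) and lower with LPS (-1.04). The 3 measured of 6 T cell markers summed to 437 with PTX, 288 with LPS and 399.9 with PBS, and of 5 NK cell markers Prf1 alone was measured, at 74.5 with PTX, 86.3 with LPS and 67.2 with PBS. The part of other cells in the Rab differences was not tested, and in bulk RNA fewer cells of a type and less RNA per cell cannot be told apart.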

How the data were processed

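Per the labels, 3 µg of total RNA per sample was turned into biotin-labelled cRNA for Affymetrix arrays, 1 per group. The deposited values are 1 linear intensity per probe set and array, with a floor of 1; the program, background correction and scaling the authors used are not stated in these sources. Of 45101 probe sets 64 were controls, and of the rest 34945 had 1 gene symbol, 932 had several and 9160 had none listed in the platform annotation. All 59 Rab symbols matched the RefSeq gene table of GRCm38.p6. A pseudocount of 16 was added before log2, without further scaling. Of several probe sets, the one with the highest mean of the 3 log2 values stood for each gene. With 1 array per group there was no test, and a log2 difference of 1 (2-fold) was the line for counting. The number of arrays limits the precision. Rab genes at least 2-fold apart in any comparison are given with every reading. From other lists at most 4 genes per comparison are named, or all where 5 or fewer passed. Members and lists were chosen with earlier results of these data known. Calculations used Python 3.11.15, NumPy 2.4.6, pandas 2.3.3 and Matplotlib 3.10.9, and the counting was tested on simulated data. The 9 alternatives were pseudocounts of 1 and 64, median centring, quantile normalization, no filter or one at the 75th percentile, the mean of all measured probe sets, no probe sets that can match several transcripts, and no Rab7b. The result of 1 further gene list is not reported here.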

Additional observations from a re-analysis of the deposited data

How the results depend on the processing

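With 1 array per group no result has an error, and 24 of the 49 measured Rab genes had 1 measured probe set. No paired analysis was possible because each group held 1 array. Over 9 alternatives, 66 of 81 recomputed counts and medians of the family stayed within 1.5 times of the value reported, and no median changed sign. The Rab median in LPS against PBS (0.19) was 0.51 with median centring, 0.10 with the mean of all measured probe sets and 0.12 without probe sets that can match several transcripts. In PTX against LPS (-0.22) it was -0.56 with median centring, -0.15 with a pseudocount of 64, -0.14 with quantile normalization, -0.086 both with no filter and without probe sets that can match several transcripts, -0.069 with the mean of probe sets and -0.047 with the 75th percentile. In PTX against PBS (0.10) it was 0.014 with quantile normalization. For these medians the cause was not tested. Of the counts, median centring gave 4 Rab genes at least 2-fold higher in LPS against PBS (Rab13 at 1.06 and Rab34 at 1.00 joined Rab20 and Rab11b) and 1 in PTX against LPS (Rab19). A pseudocount of 1 gave 1 gene at least 2-fold lower in LPS against PBS (Rab5b, -1.03), and leaving out probe sets that can match several transcripts also gave 1 (Rab12, -1.39). With the mean of all measured probe sets Rab11b was at -0.21 in LPS against PBS, opposite to its value of 1.62, because its probe sets disagree. The count of higher genes there was still 2, since Rab38 then reached 1.14. The differences of Rab20, Rab19 and Rab31 past 2-fold (5 in all) stayed past 2-fold in all 9 alternatives. Each of these genes had 1 measured probe set, so only the pseudocounts, median centring and quantile normalization could change its values. The 2-fold difference of Rab5b in PTX against LPS was kept in 4 of 8. Between PTX and LPS, Rab32 missed 2-fold with quantile normalization (-0.99), Rab9 with median centring (0.97) and Rab11b with the mean of probe sets (-0.09). Over all genes, median centring turned 799 higher and 1601 lower in LPS against PBS into 1397 higher and 1073 lower, and in PTX against LPS 1681 higher and 767 lower into 1093 higher and 1522 lower.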
